A study of Macaca mulatta with 8 samples.

Results

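The genes described here are UGT8, GALC, TSPAN2, ZNF488, PLXNB3, SEPTIN8, DOCK5 and EDIL3, which are known from oligodendrocytes, the myelin-forming cells of the brain, or from the metabolism of the myelin lipid galactocerebroside. They were found through the RefSeq transcript identifier of each array probe, and 10 of the 20217 probes belonged to them, with 2 probes each for SEPTIN8 and EDIL3 and 1 for each of the others. The 8 genes are part of the 835 that could be named on the array, and all 8 were among the 547 named genes bright enough to be tested, DOCK5 through its signal in M1 alone. The genes were in part selected on their level in M1 against A46 on these same arrays, in earlier results of these data, and the differences between the areas below are therefore a description and carry no test.

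Total RNA was measured in the forelimb region of primary motor cortex (M1) and in area 46 (A46), a prefrontal association area, from the left hemispheres of 4 adolescent rhesus macaques aged 2.6 to 2.7 years that had received no experimental treatment. All animals were killed with pentobarbital and perfused with cold heparinised saline, and both areas share this. For each area there were 4 arrays of 1 colour (Cy3), which the labels number 1 to 4 without linking the number to an animal. Both areas are blocks of tissue that hold neurons, glia and vessels, so a lower level from fewer cells of a type and one from less RNA per cell cannot be told apart. The defining markers of these cells could hardly be read on the array, since of the 85 other myelin and oligodendrocyte genes listed none could be named, and of 24 neuron markers only STMN1.

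Oligodendrocytes wrap axons in myelin, a membrane rich in galactolipids. UGT8 makes galactocerebroside by joining galactose to ceramide, and GALC, a lysosomal hydrolase, breaks it down, so that the pair marks the opposite ends of galactocerebroside turnover. Loss of GALC causes Krabbe disease in humans, in which myelin of the central and peripheral nervous system is lost. Of the other genes, ZNF488 is a transcriptional regulator of oligodendrocyte differentiation, TSPAN2 a tetraspanin, PLXNB3 a receptor of the semaphorin family of guidance cues, SEPTIN8 a cytoskeletal GTPase, DOCK5 an activator of the small GTPase Rac and EDIL3 a secreted ligand of integrins.

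The 8 genes had a higher mean in M1 than in A46 in every case, as did 47.4% of all tested probes, but the size of the difference varied among them. UGT8, ZNF488 and DOCK5 were 3.12-fold, 2.58-fold and 2.56-fold higher in M1, EDIL3, PLXNB3, SEPTIN8 and TSPAN2 between 1.43-fold and 1.30-fold higher, and GALC 1.10-fold higher. Levels are given as log2 of the signal over the 75th percentile of that array, and differences are M1 minus A46 in log2 units with the SE of a limma fit. The median difference of the 8 genes was 0.51, against -0.015 over all 14683 tested probes. M1 was at least 2-fold higher for 3 of the 8 genes and for 0.838% of all tested probes.

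**Figure D1:**
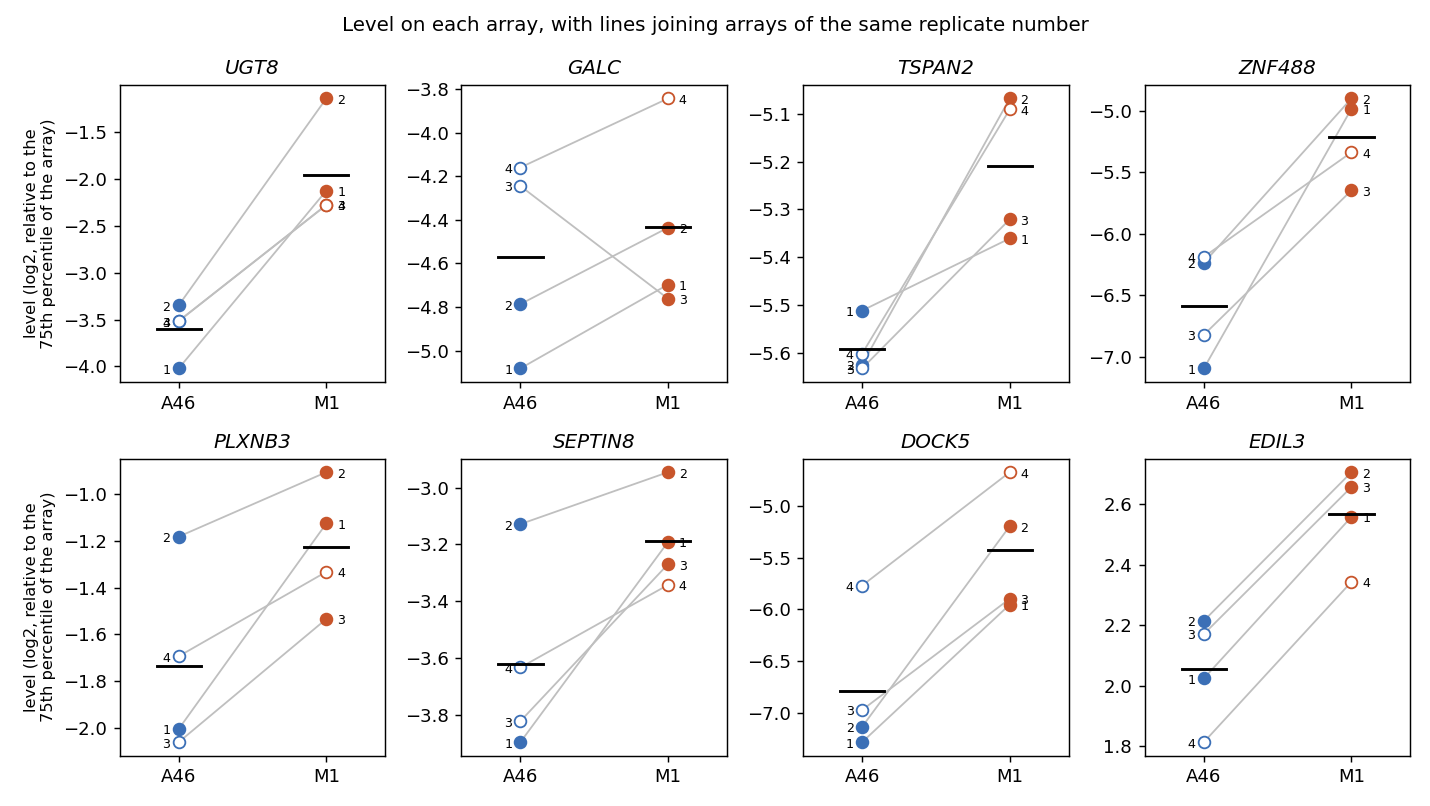
Level of each gene on each of the 8 arrays, as log2 over the array's 75th percentile (vertical axis, own range in each panel), in A46 (blue) and M1 (orange). Numbers are replicate numbers, grey lines join the same number, open circles are the 3 arrays scanned on the later days and black bars are means; all 4 M1 values lie above all 4 A46 values for UGT8, TSPAN2, ZNF488 and EDIL3, and the 3 open circles are the highest values for GALC.

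The synthetic enzyme UGT8 (probe A_01_P005829) stood at -4.02, -3.35, -3.52 and -3.52 on A46 replicates 1 to 4 and at -2.13, -1.14, -2.28 and -2.28 on M1 replicates 1 to 4. Every M1 array was above every A46 array, and M1 replicate 2 stood alone above the other M1 arrays. The means were -3.60 ± 0.29 (SD, n = 4) in A46 and -1.96 ± 0.55 in M1, a difference of 1.64 ± 0.28 SE. In same-numbered arrays the difference was 1.89, 2.21, 1.24 and 1.24 for numbers 1 to 4. Among the 547 named and tested genes only 1 had a larger positive difference.

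The degrading enzyme GALC (probe A_01_P017834) stood at -5.08, -4.79, -4.25 and -4.16 on A46 replicates 1 to 4 and at -4.70, -4.44, -4.76 and -3.84 on M1 replicates 1 to 4. The areas overlapped along most of their range. The means were -4.57 ± 0.44 (SD, n = 4) in A46 and -4.43 ± 0.42 in M1, and the difference of 0.13 ± 0.27 SE was smaller than its error. The difference in same-numbered arrays was 0.39, 0.35 and 0.32 for numbers 1, 2 and 4, but -0.52 for number 3. Without A46 replicate 1 the difference of GALC was -0.037, and without M1 replicate 4 it was -0.063.

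The high and low values of GALC divided by the day of scanning and not by area. The 2 later of the 4 scan days held M1 replicate 4 and A46 replicates 3 and 4. On these 3 arrays GALC lay at -4.25 to -3.84, above the -5.08 to -4.44 of the other 5 arrays. Within each scan set every M1 array lay above every A46 array, among the earlier scans by a narrow margin (-4.76 against -4.79). The areas differed there by 0.36 among the later scans (1 M1 and 2 A46 arrays) and by 0.30 among the earlier (3 M1 and 2 A46). The signal of GALC was 40.1 to 139.9 units over all arrays. The median negative control spot lay at 2.78 to 4.90 units on the later arrays and at 1.11 to 1.41 on the earlier. Whether this background had a part in the higher GALC values was not tested. The difference between later and earlier scans was fitted only after the values had been seen. The arrays numbered 1, 2 and 4 each shared a scan day within their number, so the scan sets largely follow the replicate numbers. The p-values of this comparison are therefore given as a description and not as an independent test. In a limma fit with area and scan set as terms, GALC was higher by 0.76 ± 0.12 SE on the later arrays (adjusted p = 0.00482). It was the only one of the 8 genes to pass by its brightest probe, 12.5%, where 21.7% of all tested probes passed in either direction and 14.3% as higher. Its later arrays all lay above the earlier ones, as they did for 18.5% of all tested probes. A difference of this kind was therefore not rarer among all probes than among these genes. This fit takes the arrays as independent, but 2 of the 3 later arrays share the number 4, and within numbers the scan sets can be compared only through number 3. With the replicate number as a block GALC was higher by 0.87 ± 0.16 SE and missed the threshold (limma adjusted p = 0.0596), and 544 probes passed. Without the block GALC missed the threshold without M1 replicate 4 (0.73, limma adjusted p = 0.0664) and after a normexp background correction (0.32, limma adjusted p = 0.0575). Of all probes 3192 passed, 904 without M1 replicate 4 and 1531 without A46 replicate 4, and 66.0% of the 3192 were higher on the later arrays, against 48.8% to 53.1% under the other scalings. With the scan set in the fit, the difference of GALC between the areas was 0.32 ± 0.12 SE, larger than the 0.13 without it. Replicate number 3 is the only one whose arrays fell into different scan sets, with A46 among the later scans and M1 among the earlier.

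The transcriptional regulator ZNF488 (probe A_01_P012575) stood at -7.10, -6.24, -6.82 and -6.19 on A46 replicates 1 to 4 and at -4.98, -4.90, -5.65 and -5.34 on M1 replicates 1 to 4. As for UGT8, the areas did not overlap. The means were -6.59 ± 0.45 (SD, n = 4) in A46 and -5.22 ± 0.34 in M1, a difference of 1.37 ± 0.25 SE. It was 2.11 in the arrays numbered 1 and 1.34, 1.17 and 0.85 in those numbered 2, 3 and 4. Its signal was dim, from 9.94 to 49.6 scanner units, where the median negative control spot of the arrays lay at 1.11 to 4.90 units. After a normexp background correction, which adds an offset of 50 units, the difference of ZNF488 was 0.44.

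DOCK5, the Rac activator (probe A_01_P013158), stood at -7.28, -7.13, -6.97 and -5.77 on A46 replicates 1 to 4 and at -5.95, -5.20, -5.90 and -4.68 on M1 replicates 1 to 4. The areas overlapped through A46 replicate 4, which lay above 2 of the M1 arrays, while M1 was higher in each same-numbered pair, by 1.33, 1.93, 1.07 and 1.09. The means were -6.79 ± 0.69 (SD, n = 4) in A46 and -5.43 ± 0.61 in M1, a difference of 1.36 ± 0.40 SE. In both areas replicate 4 was the highest. The later scans stood higher for DOCK5 by 0.91 ± 0.30 SE, which did not pass (limma adjusted p = 0.0650), although it passed without A46 replicate 3 (1.21, limma adjusted p = 0.0174). The probe was the dimmest of the 10 by its median signal, at 8.75 to 78.5 units, and on A46 replicate 3 it was well above background on 1 of its 2 spots, which differed there by 0.93 log2 units. The difference was 0.41 after normexp correction.

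EDIL3, the integrin ligand, was read by 2 probes on the same transcript identifier that gave different pictures. The brighter, A_01_P011175, stood at 2.02, 2.22, 2.17 and 1.81 on A46 replicates 1 to 4 and at 2.56, 2.71, 2.66 and 2.34 on M1 replicates 1 to 4. These values did not overlap, and the difference of 0.51 ± 0.14 SE was nearly the same in each same-numbered pair, at 0.53, 0.49, 0.49 and 0.53 (SD 0.025). The pair differences of the other 7 genes had SDs of 0.19 to 0.54. The dimmer probe, A_01_P000454, stood at -1.25, -1.71, 0.05 and -0.48 on A46 replicates 1 to 4 and at -0.91, -0.98, -0.57 and 0.01 on M1 replicates 1 to 4. Here the areas overlapped, with a difference of 0.24 ± 0.39 SE that became -0.050 without A46 replicate 2, and the pair numbered 3 had the opposite sign to the others (-0.61).

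The dimmer EDIL3 probe followed the scan set as GALC did. Its 3 later arrays lay at -0.48 to 0.05 and its 5 earlier ones at -1.71 to -0.57, a difference of 1.08 ± 0.19 SE (limma adjusted p = 0.00808; 1.13 and 0.0594 with the replicate block). The brighter probe differed by -0.20 ± 0.12 SE (limma adjusted p = 0.265). With the scan set in the fit, the difference between the areas was 0.51 ± 0.19 SE by the dimmer and 0.46 ± 0.12 SE by the brighter probe. Whether the 2 probes read the same transcripts was not tested.

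**Figure D2:**
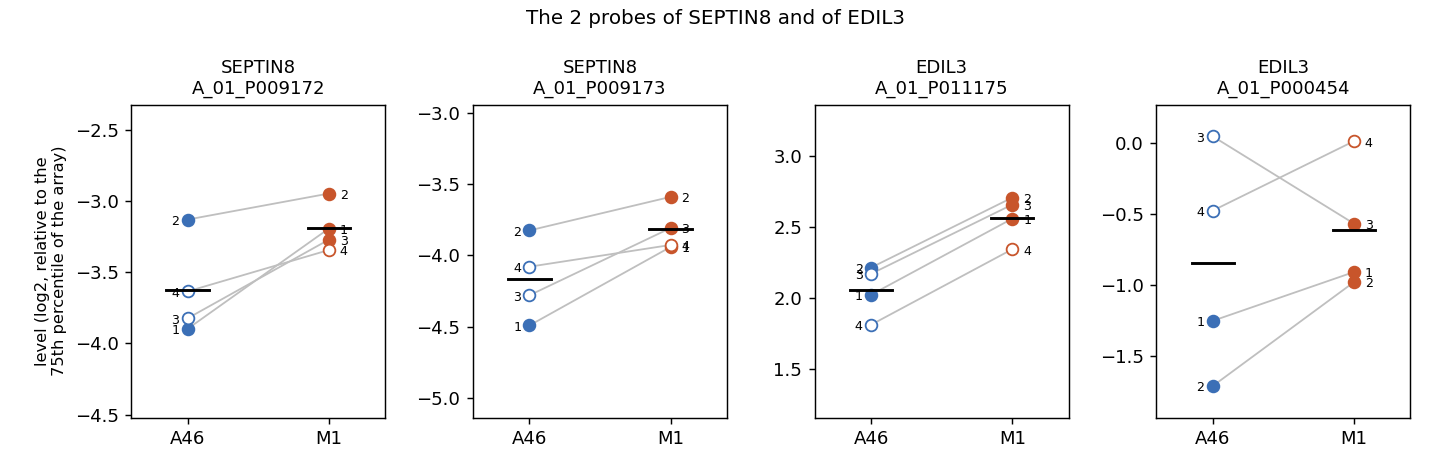
Level on each array, as log2 over the array's 75th percentile (vertical axis, the same span in each panel), for the 2 probes of SEPTIN8 and the 2 of EDIL3, with symbols as in the plot of levels by array. Both SEPTIN8 probes are highest on the arrays numbered 2 in each area, whereas for EDIL3 probe A_01_P000454 the 3 open circles of the later scans are the highest and the areas overlap.

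The cytoskeletal gene SEPTIN8 was also read by 2 probes, which put the 4 A46 arrays in the same order and M1 replicate 2 above the other M1 arrays. By the brighter, A_01_P009172, it stood at -3.90, -3.13, -3.82 and -3.63 on A46 replicates 1 to 4 and at -3.19, -2.95, -3.27 and -3.34 on M1 replicates 1 to 4. Only A46 replicate 2 reached into the range of M1. The difference was 0.43 ± 0.19 SE by this probe and 0.35 ± 0.17 SE by A_01_P009173, and M1 was higher in 4 of 4 pairs by both.

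The guidance receptor PLXNB3 (probe A_01_P010260) stood at -2.00, -1.18, -2.06 and -1.69 on A46 replicates 1 to 4 and at -1.13, -0.91, -1.53 and -1.33 on M1 replicates 1 to 4. As for SEPTIN8, it was A46 replicate 2 that overlapped with M1. The difference was 0.51 ± 0.22 SE, and in same-numbered pairs it was 0.88, 0.27, 0.52 and 0.36. For PLXNB3 and for the brighter SEPTIN8 probe the pair numbered 1 differed most and that numbered 2 least, while by the dimmer SEPTIN8 probe the pair numbered 4 differed least (0.15).

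The tetraspanin TSPAN2 (probe A_01_P014686) stood at -5.51, -5.62, -5.63 and -5.60 on A46 replicates 1 to 4 and at -5.36, -5.07, -5.32 and -5.09 on M1 replicates 1 to 4. The areas did not overlap, and the A46 values were close together, with an SD of 0.055 against 0.15 in M1. The difference of 0.38 ± 0.11 SE was of the same order as the largest gap between the 2 spots of the probe on one array (0.39, on M1 replicate 1). At 27.8 to 58.9 units the probe was dim, and after normexp correction the difference was 0.12.

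**Figure D3:**
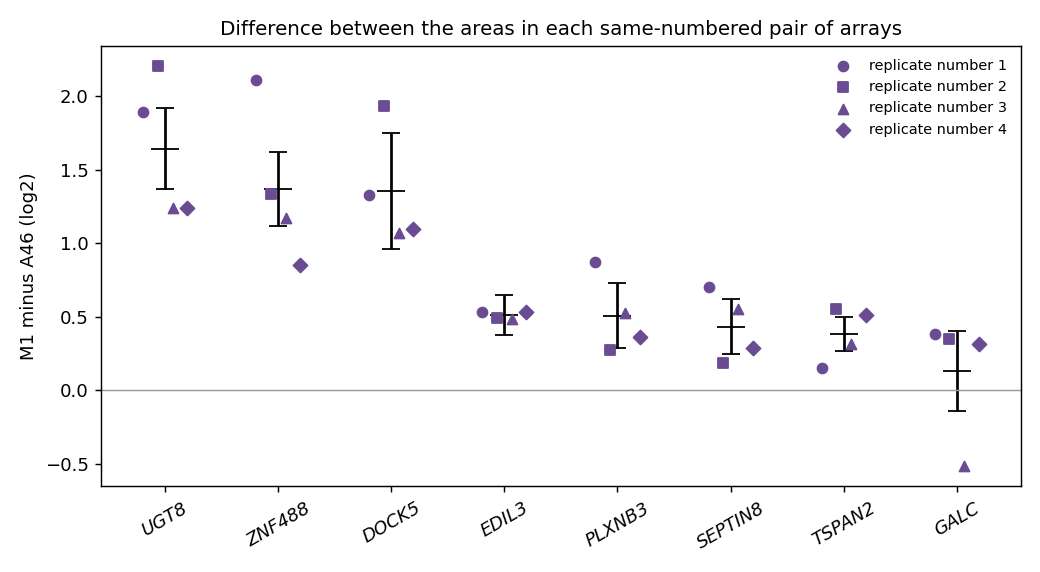
M1 minus A46 in log2 units (vertical axis) for each gene, ordered by its mean difference; symbols are the 4 same-numbered pairs of arrays, and the bar with whiskers is the mean difference ± SE of the limma fit. The EDIL3 pairs, by its brightest probe, lie within 0.49 to 0.53. The UGT8 pairs lie between 1.24 and 2.21, and the GALC pair numbered 3 lies below 0.

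Counted over the genes, the 4 M1 arrays lay above the 4 A46 arrays in 4 of 8 (UGT8, TSPAN2, ZNF488 and EDIL3 by its brightest probe), against 3.5% of all tested probes. M1 was higher in 4 of 4 same-numbered pairs for 7 of 8, all but GALC, against 16.3% of all tested probes. None of the 8 genes passed an adjusted p of 0.05 in the limma fit of area, in which 0.184% of probes passed and 0.136% as higher in M1, while 7 of the 8 had an unadjusted p under 0.05, as did 9.46% of all probes. With the replicate number as a block 4 passed (UGT8, ZNF488, DOCK5 and EDIL3 by its brightest probe), against 2.63% of probes in either direction and 1.64% as higher in M1. DOCK5 counts here although it passed the filter on dim probes only through M1, the area in which it was high. Since this contrast had a part in the choice of the genes, these counts describe the choice and show nothing further.

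The arrays were also ordered within each area. In M1, replicate 2 was the highest array for 6 of the 8 genes and for 18.1% of all tested probes, the exceptions being GALC and DOCK5, for which it was replicate 4. In A46, replicate 2 was the highest for 4 genes and for 22.2% of all tested probes. The 4 were UGT8, PLXNB3, SEPTIN8 and EDIL3. Replicate 1 was the lowest in A46 for 5 genes (UGT8, GALC, ZNF488, SEPTIN8 and DOCK5) and for 30.4% of the probes. EDIL3 was counted in both areas by its brightest probe. By its dimmer probe replicate 2 was instead the lowest, at -1.71 in A46 and -0.98 in M1. The number 2 was the highest in both areas for 4 of 8 genes, where it was so for 8.09% of all tested probes, a comparison made after the values had been seen and given without a test. The numbers 1 and 3 were the highest in both areas for none of the 8 genes, and for 17.6% and 6.42% of all tested probes. The number 4 was so for 2 of the 8, GALC and DOCK5, and for 18.0% of the probes.

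The same differences were split by scan day, as a description, on the 3 days that held both areas. UGT8 differed by 1.64, 1.89 and 1.24 on days 1, 2 and 3, of which day 1 held 1 A46 and 2 M1 arrays and the others 1 of each. DOCK5 differed by 1.58, 1.33 and 1.09, and ZNF488 by 0.96, 2.11 and 0.85. EDIL3 differed by 0.47, 0.53 and 0.53 by its brightest probe, and by 0.94, 0.34 and 0.49 by the dimmer. The difference was 0.19, 0.39 and 0.32 for GALC and 0.43, 0.15 and 0.51 for TSPAN2. PLXNB3 (-0.04, 0.88 and 0.36) and SEPTIN8 by its brightest probe (0.02, 0.71 and 0.29) showed next to no difference on day 1, which held A46 replicate 2 with M1 replicates 2 and 3. By its dimmer probe SEPTIN8 differed by 0.13, 0.55 and 0.15, so that day 1 was close to day 3. The arrays numbered 1 shared a slide, and the other 6 lay on slides of their own.

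**Figure D4:**
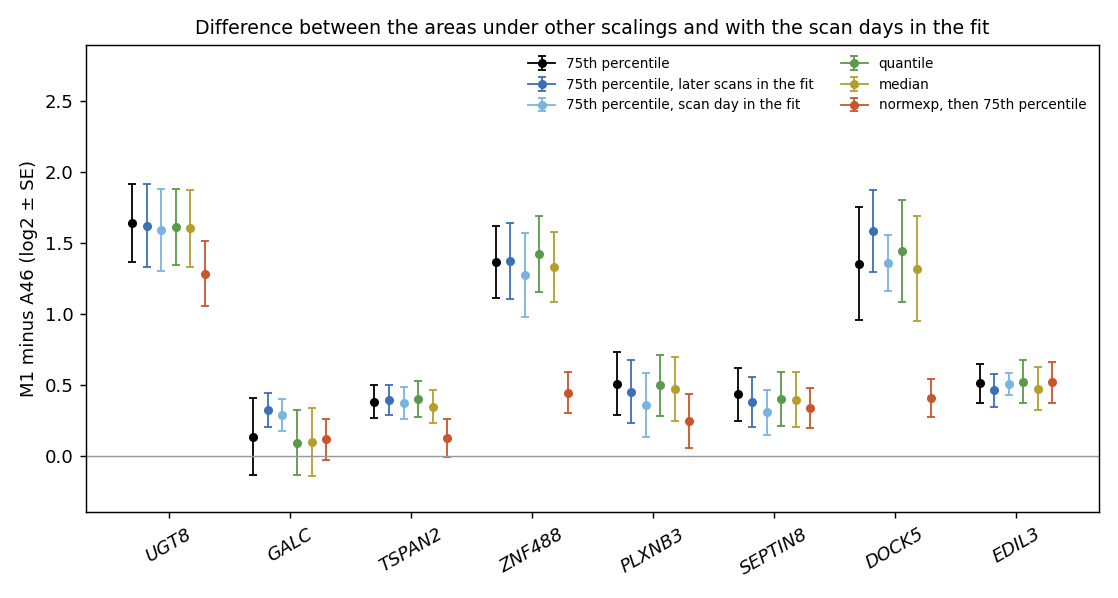
M1 minus A46 in log2 units ± SE (vertical axis) for each gene, under the 75th percentile scaling alone, with the later scans or the scan day in the fit, and under quantile, median and normexp processing. Normexp lowers the differences of the dim probes of ZNF488 (0.44), DOCK5 (0.41) and TSPAN2 (0.12), and the difference of GALC is 0.32 with the later scans in the fit against 0.13 without.

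Among the other named genes, those whose 8 values lay nearest to UGT8 were ZNF488, MOSPD2, KCNE5, SCIN and ANGPTL2. Nearness was the root mean square distance between 2 genes over the 8 arrays, each gene centred on its own mean, among 510 named genes well above background on every array. ZNF488 was the nearest of all at 0.32 log2 units, followed by MOSPD2, a protein of membrane contact sites, at 0.46, and KCNE5, an accessory subunit of potassium channels, also at 0.46. SCIN, an actin-severing protein, lay at 0.47 and the secreted glycoprotein ANGPTL2 at 0.50, where the median of the 510 genes was 0.94. PLXNB3, EDIL3, SEPTIN8 and TSPAN2 were 12th, 15th, 17th and 37th in this order, and GALC was 175th at 0.90. The 8 genes were in part chosen on their level in M1 against A46, so the nearness of ZNF488 and the others to UGT8 partly follows from that choice.

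SCIN stood at -6.03, -4.95, -5.69 and -5.25 on A46 replicates 1 to 4 and at -4.55, -4.35, -4.80 and -4.58 on M1 replicates 1 to 4. Like UGT8, it was lowest on A46 replicate 1 and highest on M1 replicate 2. It was also among the 5 genes nearest to the mean profile of the 7 members detected on all arrays, at 0.20. The others were P3H2, an enzyme that modifies collagen, at 0.14, the histone gene H4C8 at 0.14, PCP4L1 at 0.18 and the histone gene H2AC8 at 0.22, where the median of 504 genes was 0.48. The area contrast makes up much of these profiles, and the order describes likeness over 8 arrays and no more.

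**Figure D5:**
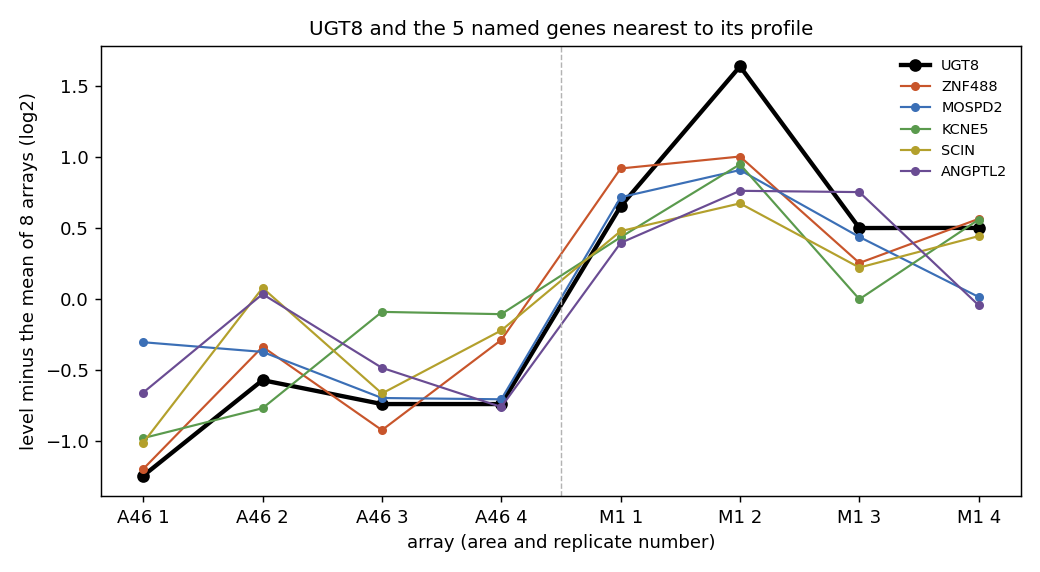
Level of UGT8 and of the 5 named genes nearest to it on each of the 8 arrays (horizontal axis), in log2 units after subtracting each gene's mean over the 8 arrays (vertical axis). All 6 genes have a higher mean in M1, right of the dashed line, and the peak of UGT8 on M1 replicate 2 is shared by ZNF488, MOSPD2, KCNE5, SCIN and, by a narrow margin over M1 replicate 3, ANGPTL2.

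Other genes of the same pathways and of other cell types were sparse, with 10 of 392 listed genes outside the 8 named and 8 tested. None of these 8 list genes passed the limma fit of area at an adjusted p of 0.05, 2 of them had an unadjusted p under 0.05, and their median difference was -0.11, with 2 above 0 and 6 below. No other gene of the lists for myelin, sphingolipid metabolism, septins, the DOCK family, tetraspanins, integrin partners of EDIL3 or microglia was tested. Of the cholesterol synthesis genes, whose product myelin holds in large amounts, the isomerase gene IDI1 averaged -1.49 ± 0.35 in A46 and -0.99 ± 0.37 in M1 (SD, n = 4 each), with a difference of 0.49 ± 0.23 SE (limma adjusted p = 0.576; 0.0484 with the replicate block). Of the plexins and semaphorins, PLXNA1 differed by -0.36 ± 0.25 SE (limma adjusted p = 0.776), of opposite sign to PLXNB3. Of the oligodendrocyte precursor genes, the growth factor gene BMP4 differed by -0.26 ± 0.18 SE (limma adjusted p = 0.770).

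The markers of other cell types with a tested probe did not share a direction. The neuron marker STMN1 differed by -0.14 ± 0.17 SE, the astrocyte marker FGFR3 by -0.05 ± 0.14 SE and the globin gene HBE1 by -0.07 ± 0.34 SE (limma adjusted p of 0.902, 0.966 and 0.979). Both tested endothelial genes pointed in opposite directions, with EMCN at 0.36 ± 0.11 SE and ACKR1 at -0.66 ± 0.25 SE (limma adjusted p = 0.323 and 0.429), and with the replicate block ACKR1 passed as lower in M1 (0.0471) while EMCN did not (0.0799). These single genes do not measure the cell makeup of the tissue, and their part in the differences of the 8 genes was not tested. ACKR1 and HBE1 were also higher on the later arrays, by 0.61 and 0.99 (limma adjusted p = 0.0297 and 0.00155). None of the other list genes named here passed for the later scans. HBE1 was dim, with means of -5.985 in A46 and -6.058 in M1. Whether the higher background of the later arrays had a part in its difference was not tested. With the scan set in the fit, ACKR1 differed by -0.50 between the areas (limma adjusted p = 0.205).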

How the data were processed

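The deposited scanner files give an intensity per spot in linear units, background-subtracted and detrended within the array by Agilent Feature Extraction 10.7.3.1, per the file headers, and not normalized between arrays. A deposited table of the whole series holds log2 values. Their differences between arrays matched those of the scanner values (slope 1, median gap at most 0.00907 log2 units), with column medians of -0.062 to 0.088. Neither its baseline nor its making is stated in the labels or headers. Probes were designed on rheMac2, per the file headers. Probes were named by RefSeq identifier, version dropped, from a table of T2T-MMU8v2.0, used for names only, and 942 of 5583 probes with such an identifier matched, 898 of them with a gene name. The other probes are unnamed here.

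The 1417 control spots and spots flagged as outliers (0 to 220 per array) were left out, and no spot was saturated. The 2 spots of each probe were averaged as log2 intensities, less the 75th percentile of their array (1232 to 2008 units). The filter kept 14698 probes that stood well above background on each array of at least 1 area; of these, 15 had no value left on an array and 14683 were fitted with limma 3.58.1 in R 4.3.3 (a single term for area, with 6 residual degrees of freedom, Benjamini-Hochberg adjustment over all fitted probes). The fit was also run on simulated arrays with known changes and independent noise. These lack the likeness between real arrays of one replicate number or scan set, so they cannot show how the fit handles it. For a gene with several probes the brightest was used. The number of arrays limits the precision, with a median SE of 0.18 log2 units. Tables and plots were made with Python 3.11.15, pandas 2.3.3 and matplotlib 3.10.9.

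The labels do not connect replicate numbers with animals, and without that p-values measure the spread between samples of an area. Deviations from the area mean correlated across probes with r = 0.726, 0.634, 0.169 and 0.858 between same-numbered arrays, each over the 0.1 set for treating numbers as pairs. A46 replicate 3 was closer to M1 replicate 4 (r = 0.481), and M1 replicate 3 was closer to A46 replicate 2 (r = 0.259). The pairing of the arrays numbered 3 is therefore the weakest. The arrays numbered 1, 2 and 4 shared a scan day within their number, and those numbered 3 did not. The correlations therefore cannot tell a shared animal from a shared scan day, and the calls made with the block carry this limit. The block has 3 residual degrees of freedom.

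The genes and lists were chosen with earlier results of these data known. A gene of the lists is not reported here and was left out of their counts, though its probe stayed in the fits. The rule for naming took the 8 genes, list genes past the threshold in either fit or otherwise the 3 with the smallest p in a list, and the 5 genes nearest to UGT8 and to the mean profile. The difference between later and earlier scans was added after the values were seen. Alternatives were the replicate block, scan day, normexp on the median spot and background signals (in place of the mean spot signal), quantile and median normalization, the deposited log2 values, other filters, an intensity trend and leaving out each array or pair.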

Additional observations from a re-analysis of the deposited data

Results flagged for a closer look

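Of 20 groups of 4 arrays examined (10 probes in 2 areas), 1 held an array far from the other 3, where chance alone gives about 1. It was UGT8 on M1 replicate 2, at -1.14 against -2.28 to -2.13 on the other M1 arrays. Without this array the difference of UGT8 between the areas was 1.37 in place of 1.64. The cause was not tested.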

How the results depend on the processing

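Over 22 alternatives (21 for DOCK5), UGT8, TSPAN2, ZNF488, PLXNB3, SEPTIN8, DOCK5 and EDIL3 by its brightest probe kept a positive difference, UGT8 between 1.29 and 1.78. After normexp TSPAN2 stood at 0.12, ZNF488 at 0.44 and DOCK5 at 0.41. Its offset by construction shrinks dim probes. Leaving out 1 array gave 1.37 to 1.75 for UGT8, -0.063 to 0.27 for GALC (below 0 without A46 replicate 1 or M1 replicate 4) and -0.050 to 0.53 for EDIL3 probe A_01_P000454 (below 0 without A46 replicate 2). The count of probes past the threshold, 27, was 386 with the replicate block, 153 with scan day, 71 with later scans in the fit, 41 after normexp, 45 with an intensity trend and 0 with no filter (1371 at an unadjusted limma p under 0.05). Without 1 array it was 0 to 4 (975 to 1832 unadjusted), 4 only without M1 replicate 4, and in the block without 1 pair 0 to 405 (2, 0, 405 and 1 without numbers 1 to 4). Members past it were 4 with the block, 1 with scan day (DOCK5), 3 in the block without number 3, and 0 in each of the other fits; list genes were 2 with the block (IDI1 0.49, ACKR1 -0.66) and 0 elsewhere. In the comparison of areas the block changed no other call of the 8 genes or the list genes. Genes near 0 crossed it: HBE1 (0.23 with scan day, 0.17 with later scans, -0.31 to 0.15 without 1 array, 0.28 in the block without number 3) and FGFR3 (0.0017 with later scans, -0.12 to 0.029 without 1 array, 0.0058 in the block without number 3). For the later scans the count of 3192 was 544 with the replicate block, where 0 members passed, 5906 with no filter and 904 to 3266 without 1 array (904 without M1 replicate 4, 1531 without A46 replicate 4). The share of it that was higher, 66.0%, was 94.7% with the block, 53.1% after normexp, 51.1% with quantile and 48.8% with median normalization. GALC there stood at 0.32 after normexp (adjusted p = 0.0575), where 0 members passed, and at 0.69 to 0.83 without 1 array, with 0 to 2 members passing (0 without M1 replicate 4, 2 without A46 replicate 3). The adjusted p of the dimmer EDIL3 probe was under 0.05 in 15 of 16 alternatives, the exception being the block (1.13, 0.0594), where GALC stood at 0.87 (0.0596). Of the 5 genes nearest to UGT8 and to the mean profile, 2 of each remained after normexp. Apart from the offset of normexp, and the fewer arrays or more probes tested, the cause of these shifts was not tested. The fit with the slide as a block could not be made, since it leaves no residual degrees of freedom. Low signal over background limits what DOCK5, ZNF488, TSPAN2 and, in the comparison of scans, GALC and HBE1 can show.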
